A study of Mus musculus with 3 samples.

Results

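The T-cell receptor alpha and beta variable segments are the gene pieces from which each T cell builds the part of its receptor that meets antigen. Every gene symbol of the deposited feature table that starts with Trav or Trbv was taken, which gave 163 segments of 32285 genes: 128 Trav segments on chromosome 14 (GRCm38, chr14:52427928-53977678) and 35 Trbv segments on chromosome 6 (chr6:40891229-41558452). They were followed in mouse peripheral blood mononuclear cells of the C57BL/6 strain, read with the 10x Genomics Single Cell 3' v3 kit. The young group received PBS for 1 month, the aged group PBS for 1 month, and the aged+AA group AA (ascorbic acid, by the title of the series) for 1 month. The labels give no age beyond young or aged and no number of mice per library. Each group was 1 library, so no test between groups exists, and a difference between libraries cannot be told apart from a difference between the mice or the preparations.

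In the thymus, a beta chain is made by joining 1 Trbv segment to a diversity and a joining segment and then to Trbc1 or Trbc2, the constant genes. An alpha chain joins 1 Trav segment to a joining segment and to Trac, the alpha constant gene. The daughters of a T cell keep its joints, so a clone that has multiplied carries a single Trav and Trbv pair, and an excess of 1 segment or 1 pair among cells is a known sign of such a clone. In old mice, CD8 cells, which kill infected cells, are known to hold such expansions more often than CD4 helper cells. A 3' library reads the far end of the transcript, so it meets the variable segment in only a minority of cells and does not read the joint itself.

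T cells were cells with at least 1 UMI (unique molecular identifier, 1 captured RNA molecule) summed over Cd3d, Cd3e and Cd3g, the CD3 chains of the receptor complex, and at most 1 UMI of Cd79a, a B-cell receptor gene. This left 5563 of 8729, 2552 of 9765 and 4788 of 11100 cells (young, aged, aged+AA). CD8 cells had a Cd8a or Cd8b1 UMI and no Cd4 UMI, and numbered 2064, 949 and 2475 (young, aged, aged+AA). CD4 cells had a Cd4 UMI and neither CD8 gene, and numbered 1079, 619 and 727. The median depth of CD8 cells was 5849.5, 5833 and 6467 UMIs per cell. Libraries shared 21 to 29 cell barcodes pairwise, at most 0.298% of the smaller library. The aged library stood apart in markers of other cells: myeloid markers (Lyz2, S100a8, S100a9 and Csf1r) were met in 74.2% of its CD8 cells, against 3.25% in the young and 16.4% in the aged+AA library, with none of the 4 genes at 0 in any library. Red-cell globin genes summed to 66234 CPM (UMIs of a gene per 1000000 UMIs of the cells summed) in aged CD8 cells, 21558 in young and 25418 in aged+AA ones. The part of these RNAs in the results below was not tested.

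Some leading Trav segments differ from a close copy by a few bases, and the leading Trbv segments do not, so sequences are shown first. Trbv12-2, the Trbv segment with the most CD8 cells, and Trbv12-1, its closest relative, differ at 9 of the last 120 bases of their variable exons. Over the whole variable exons they differ at 32 positions, with 89.1% identity. The 2 sequences are from the GENCODE M21 transcripts on GRCm38, plus strand, 5′ to 3′, with the differing bases in capitals. Trbv12-2 lies at chr6:41119245-41119364 and Trbv12-1 at chr6:41113948-41114067.
Trbv12-2: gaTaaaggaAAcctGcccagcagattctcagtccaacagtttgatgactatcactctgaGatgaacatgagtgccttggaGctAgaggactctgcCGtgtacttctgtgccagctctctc
Trbv12-1: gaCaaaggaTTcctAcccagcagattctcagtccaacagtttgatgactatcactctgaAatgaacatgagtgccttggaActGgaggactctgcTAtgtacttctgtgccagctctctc

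Among Trav segments, Trav16n and Trav16 led in CD8 cells. With Trav16d-dv11 they form a family of 3 near copies that differ at only 4 of the last 120 bases. Their exon ends are at chr14:53743586-53743705 for Trav16, chr14:53351502-53351621 for Trav16n and chr14:53047702-53047821 for Trav16d-dv11, plus strand, with the differing bases again in capitals.
Trav16: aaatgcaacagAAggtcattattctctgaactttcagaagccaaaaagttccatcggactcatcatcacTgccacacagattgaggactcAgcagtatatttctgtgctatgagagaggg
Trav16n: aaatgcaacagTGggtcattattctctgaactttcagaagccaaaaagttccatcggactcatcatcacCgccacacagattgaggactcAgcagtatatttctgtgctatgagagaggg
Trav16d-dv11: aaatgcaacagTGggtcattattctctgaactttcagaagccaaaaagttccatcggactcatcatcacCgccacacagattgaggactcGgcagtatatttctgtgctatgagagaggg

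The last pair of sequences belongs to Trbv2 and Trbv31, the 2 Trbv segments with an adjusted p under 0.05 in the CD8 against CD4 test given further on, both higher in CD4 cells. The capitals mark TGTGCCAG, the most common run of 8 bases in the last 25 bases of Trbv exons, searched on the coding strand only. It begins with the codon of the conserved cysteine that opens the third antigen-binding loop. It was found in 19 of 35 Trbv segments, or 54.3%, and in Trbv2 but not in Trbv31. Trbv2 is shown at chr6:41047936-41047995 on the plus strand and Trbv31 at chr6:41557691-41557750 on the minus strand.
Trbv2: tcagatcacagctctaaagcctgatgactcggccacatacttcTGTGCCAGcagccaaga
Trbv31: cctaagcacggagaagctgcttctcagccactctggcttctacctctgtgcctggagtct

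Of the 163 segments, 103 had at least 1 UMI in the T cells of the 3 libraries, 60 had none, and 65 had at least 20 UMIs. Together they held 5326 UMIs. The annotation calls 130 of them genes and 33 pseudogenes. Among Trbv segments all 22 genes were met and 1 of 13 pseudogenes, Trbv24, with 31 UMIs. Among Trav segments 72 of 108 genes and 8 of 20 pseudogenes were met, led among pseudogenes by Trav8-2 with 39 UMIs and Trav22 with 30 UMIs. So a name as pseudogene in the annotation did not mean that no UMI was assigned.

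The count of a Trav segment went with how much of its sequence it shared. The Trav region of the mouse strain of the reference holds large repeats, whose members carry the letters d and n. For 60 of the 128 Trav segments, fewer than 50% of the 90-base stretches of the transcript were found in no other Trav or Trbv segment. Of these 60, 40 had 0 UMIs and the median was 0 UMIs. Of the other 68, 8 had 0 UMIs and the median was 27 UMIs. Trav11d is a full copy by this measure, with 0% of its stretches its own and 1 base apart from Trav11 in the variable exon. Reads that fit 2 copies equally cannot be placed, so a Trav segment listed at 0 may have been transcribed, and splits between near copies are uncertain. No Trbv segment had fewer than 50% of its own stretches.

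**Figure D1:**
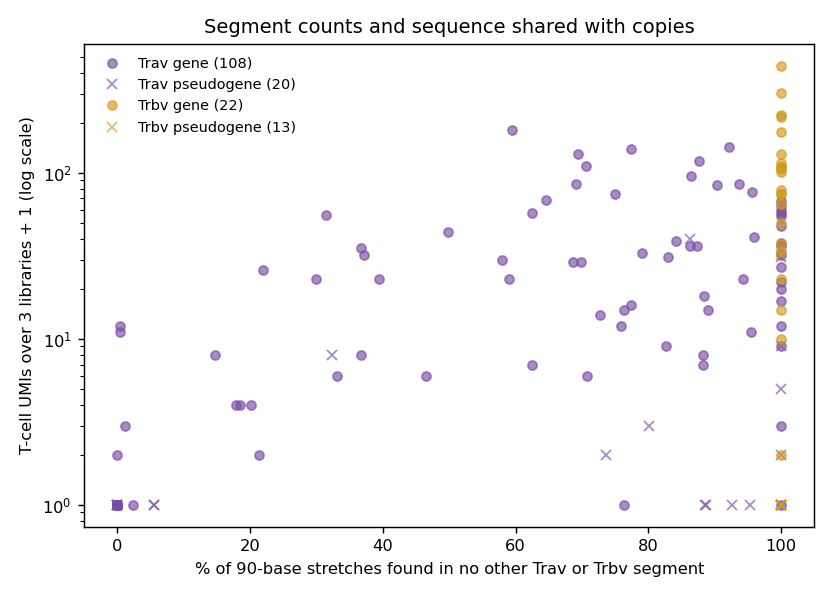
Each point is 1 of the 163 segments. The x axis gives the percent of its 90-base stretches found in no other Trav or Trbv segment, and the y axis its UMIs in T cells of the 3 libraries plus 1, on a log scale. Most of the 60 Trav segments under 50% lie on the floor of 0 UMIs, whereas the Trbv segments stand at the right edge.

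Detection set how much of the repertoire could be seen. A Trbv UMI was met in 21.4% of young CD8 cells (95% exact binomial interval 19.7 to 23.2), 12.4% of aged ones (10.4 to 14.7) and 13.5% of aged+AA ones (12.2 to 14.9). These and all later intervals cover counting error only, not differences between mice. Both aged libraries lay below the young one, with no overlap of the intervals. A Trav UMI was met in 19.4%, 13.2% and 13.9% of CD8 cells in the same order. CD4 cells gave 21.6%, 16.2% and 13.2% for Trbv, and 20.4%, 14.1% and 19.1% for Trav. B cells, which should lack both, gave 0.0438% to 0.121% for Trbv and 0.131% to 0.148% for Trav at a median depth of 3166 to 3584 UMIs.

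The young library also had the highest CD8 values when every cell was cut to 1000 random UMIs, while the 2 aged libraries changed places: 4.46%, 2.43% and 2.32% had a Trbv UMI, and 3.93%, 3.48% and 2.97% a Trav UMI. At that depth the aged Trbv interval (1.54 to 3.62) touched the young one (3.61 to 5.44), the aged+AA one (1.76 to 2.99) lay below it, and the Trav intervals overlapped. This left out 1 young, 1 aged and 15 aged+AA CD8 cells. Set against the constant genes of the same chain, young CD8 cells held 1.74 Trbv UMIs per 100 Trbc1 and Trbc2 UMIs, aged ones 1.23 and aged+AA ones 1.02. The intervals were 1.60 to 1.89, 1.03 to 1.45 and 0.915 to 1.13. This ratio does not use the total UMIs of the cells. Trbc1 and Trbc2 together stood at 2404, 1911 and 2158 CPM (young, aged, aged+AA). For alpha chains, CD8 cells held 9.63, 6.4 and 6.68 Trav UMIs per 100 Trac UMIs. Variable segments were thus fewer per constant-gene UMI in both aged libraries for both chains. In CD4 cells the same held for Trbv (2.04, 1.49 and 0.935), but Trav per 100 Trac was 8.29, 5.70 and 8.32, so the aged+AA library was level with the young one.

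A cell was assigned to the Trbv or Trav segment that held more than a share of 0.5 of its UMIs of that family. This gave 415 young, 115 aged and 326 aged+AA CD8 cells with a Trbv segment, and 374, 118 and 333 with a Trav segment. Trbv12-2 held the most CD8 cells in all 3 libraries: 70 of 415 young cells (16.9%, 13.4 to 20.8), 22 of 115 aged cells (19.1%, 12.4 to 27.5) and 70 of 326 aged+AA cells (21.5%, 17.1 to 26.3). The intervals overlap, and the ratio of shares was 1.13 (0.669 to 1.85) for aged over young, 1.12 (0.687 to 1.90) for aged+AA over aged and 1.27 (0.901 to 1.80) for aged+AA over young. No other Trbv segment reached 13% of CD8 cells in any library. The next by cells over the 3 libraries were Trbv2 (29, 14 and 29 cells), Trbv19 (36, 9 and 22), Trbv3 (34, 3 and 25) and Trbv29 (24, 7 and 26). The 3 most used segments together held 33.7%, 39.1% and 39.3% of CD8 cells (young, aged, aged+AA), with overlapping intervals.

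CD4 cells had another leader. Trbv2 came first in all 3 libraries, with 40 of 225 young cells (17.8%), 19 of 97 aged cells (19.6%) and 17 of 92 aged+AA cells (18.5%). Trbv12-2 held 9.33%, 13.4% and 16.3% of CD4 cells, and Trbv3 13.8%, 10.3% and 7.61%. The T cells in which neither Cd4 nor a CD8 gene was met, 2332, 946 and 1498 in number, had Trbv12-2 as leader at 15.5%, 16.3% and 23.5%.

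**Figure D2:**
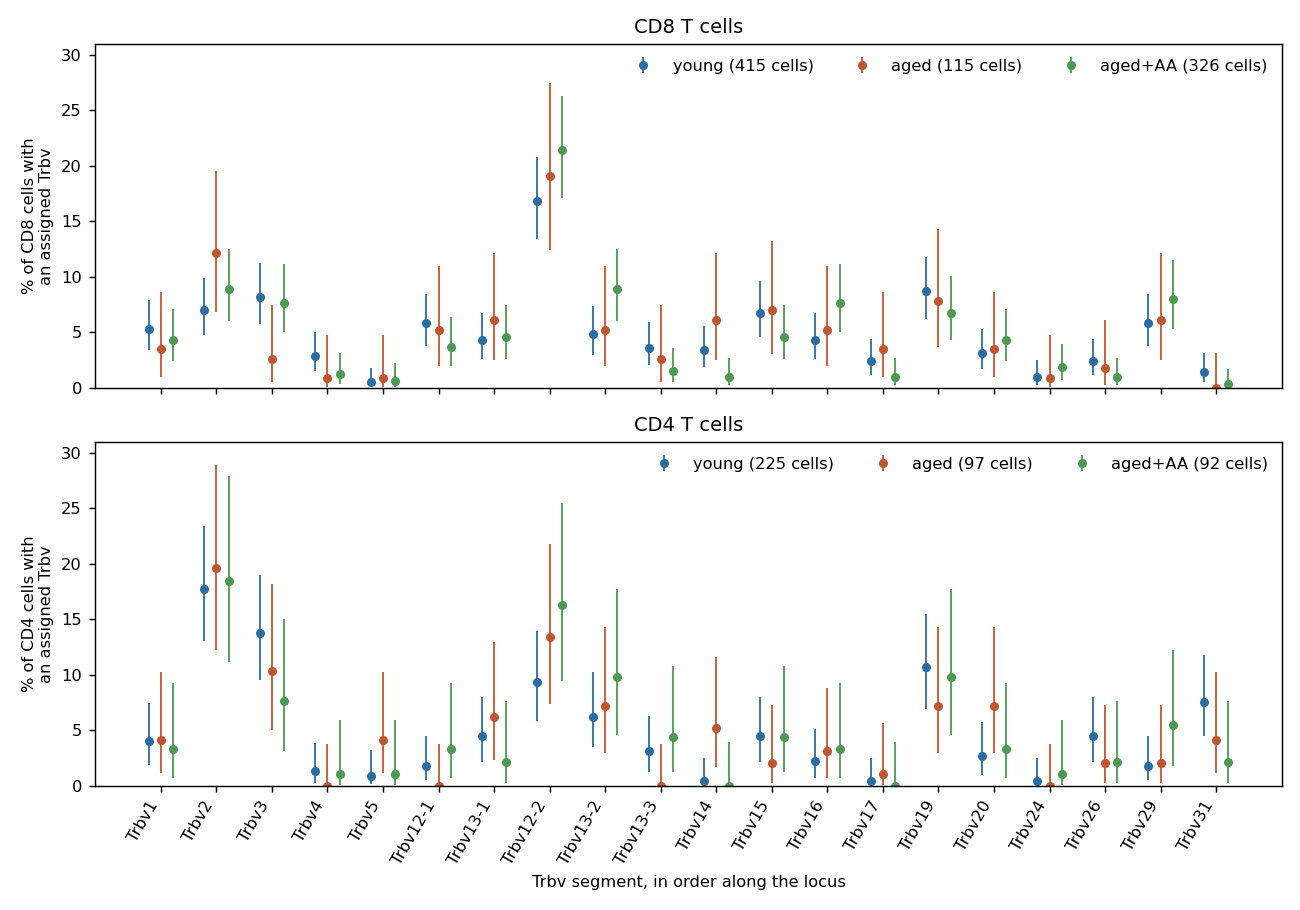
Points give the percent of cells assigned to each Trbv segment among CD8 cells (upper panel) and CD4 cells (lower panel) with an assigned Trbv. The x axis is the order along the locus, colours are the 3 libraries and bars are 95% exact binomial intervals. Segments with fewer than 20 T cells are left out. Trbv12-2 stands above the other segments in the CD8 panel, and Trbv2 holds the most CD4 cells in each library.

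Evenness was summed up as the effective number of segments, the inverse of the chance that 2 different assigned cells share a segment. A library with a dominant clone would give a low value. For Trbv in CD8 cells it was 14.0, 12.6 and 10.8 (young, aged, aged+AA). In CD4 cells it was 11.5, 11.5 and 11.3. For Trav it was 29.3, 25.3 and 36.2 in CD8 cells, and 38.4, 34.2 and 32.3 in CD4 cells. The Trbv value of CD8 cells was lowest and the Trav value highest in the aged+AA library. With at least 2 UMIs required for an assignment, the CD8 Trbv values were 8.95, 9.17 and 17.1, highest in aged+AA, so the order was not kept. CD8 cells with a Trbv UMI held 1.22, 1.16 and 1.09 such UMIs each on average. The values at 2 UMIs thus rest on few cells and do not decide the order. After drawing the same number of cells, 115 for CD8, the expected number of Trbv segments met was 20.1, 19 and 18.7. Pielou's evenness, which is 1 when all segments met are equally used, was 0.911, 0.905 and 0.852 for Trbv and 0.879, 0.915 and 0.914 for Trav in CD8 cells. With d and n copies of a Trav segment counted as 1, the CD8 values became 15.7, 15.4 and 20.4.

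**Figure D3:**
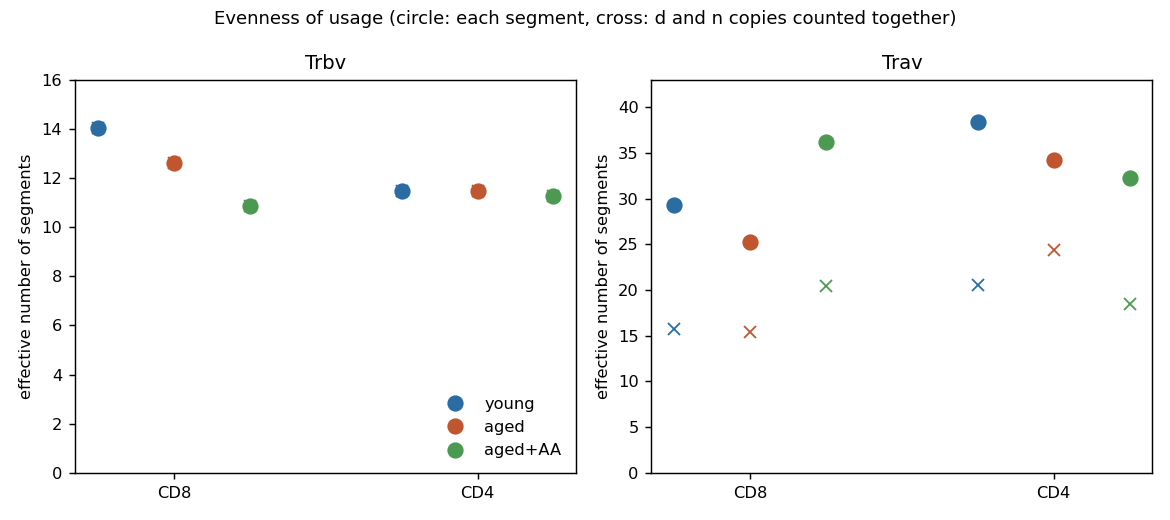
Circles give the effective number of Trbv (left) and Trav (right) segments in CD8 and CD4 cells of each library. Crosses give the same with d and n copies counted as 1 segment, which leaves Trbv as it was. The Trbv values lie between 10.8 and 14.0, and CD8 cells of the aged+AA library have the lowest Trbv and the highest CD8 Trav value.

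In alpha chains, Trav16n was first in young CD8 cells (38 of 374, 10.2%) and aged+AA CD8 cells (28 of 333, 8.41%), and Trav16 in aged ones (12 of 118, 10.2%). Trav3-3 followed with 23, 10 and 14 cells and Trav12-2 with 18, 7 and 13 cells. In CD4 cells, Trav14d-3-dv8 led in the young (12 of 200, 6%) and aged+AA library (13 of 133, 9.77%) and Trav5-4 in the aged one (8 of 84, 9.52%). The dv in a name marks a segment that the delta chain of gamma-delta T cells can use as well. Usage leaned to the end of the Trav region that lies nearest to Trac: the last 42 of 128 segments in chromosome order held 61.2%, 65.3% and 64.6% of CD8 cells with a Trav segment (young, aged, aged+AA). These 42 include 5 of the 60 segments with fewer than 50% of their own stretches and the other 86 include 55, so position and shared sequence cannot be told apart here. In Trbv, the middle 12 of 35 segments, from Trbv13-1 to Trbv20, held 58.3%, 66.1% and 61.7% of CD8 cells. Fewer of these 12 are pseudogenes than of the segments before or after them, so position and gene content cannot be told apart either.

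How alike 2 sets of cells were was measured with Morisita's index, which is about 1 for samples from the same usage and 0 for no shared segment. For Trbv, CD8 cells of different libraries gave 0.974 to 1.01 and CD4 cells 0.988 to 1.02. CD8 against CD4 cells of the same library gave 0.843, 0.935 and 0.971 (young, aged, aged+AA). For Trav, CD8 cells of different libraries gave 0.940 to 0.981, CD4 cells 0.784 to 0.972, and CD8 against CD4 cells of the same library 0.822, 0.610 and 0.829. These are descriptions of 3 libraries, with 84 to 415 cells in each set.

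The 3 libraries each hold both classes, so the difference between CD8 and CD4 cells could be tested over libraries, which vary in age and treatment. UMIs were summed per library and class and fitted with edgeR's quasi-likelihood test, with the library as a block, for 12268 genes with at least 20 UMIs. Of these, 49 were variable segments, 18 Trbv and 31 Trav. The minimum was summed over both classes, so a segment could pass it through the class where it was high. At an adjusted p under 0.05 (Benjamini-Hochberg over all genes tested) 4 segments were higher in CD4 cells, where 8.49% of all genes were. In CD8 cells 0 segments were higher, where 7.53% of all genes were, with 4 at an unadjusted p under 0.05 and 0 by DESeq2. The share of the 49 segments that was higher in CD4 cells is close to that of all genes, so it is no result about the segments as a group. The median log2 difference, CD8 minus CD4, was -0.37 for the 49 segments and -0.00 for all genes. With no scaling factors between the sums, the median of all genes moved to -0.13, and 618 genes were higher in CD8 and 1938 in CD4 cells in place of 924 and 1042.

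Trbv2 stood at 3.1, 3.25 and 1.99 CPM in CD8 cells (young, aged, aged+AA), and at 10.5, 8.18 and 5.37 CPM in CD4 cells. All 3 CD4 values lie above all 3 CD8 values. The log2 difference, CD8 minus CD4, was -1.42 (SE 0.25, adjusted p = 0.00123 in edgeR). Trbv2 was past the threshold under all 9 other settings tried, with adjusted p from 4.3e-06 to 0.0325. It was made from 92 CD8 and 103 CD4 UMIs.

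Trbv31, the one Trbv segment that lies behind the constant genes in the opposite direction, was rarer. It had 7, 0 and 1 UMIs in CD8 cells and 19, 4 and 3 in CD4 cells, which is 0.542, 0 and 0.0603 CPM against 3.46, 1.31 and 0.805 CPM. The groups do not overlap, and the log2 difference was -2.93 (SE 0.68, edgeR adjusted p = 0.00852). Trbv31 passed the minimum only through its CD4 UMIs, so its call is given as a description. Without the aged+AA library the adjusted p was 0.0553, and with DESeq2 it was 0.0662. Without the young library, which holds 26 of its 34 UMIs, Trbv31 fell under the 20 UMIs needed and was not tested.

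Trav4-4-dv10 had 6, 0 and 3 UMIs in CD8 cells and 13, 2 and 10 in CD4 cells. It was higher in CD4 cells of each library, though the aged CD4 value (0.654 CPM) was close to the young CD8 value (0.464 CPM). The log2 difference was -2.92 (SE 0.65, edgeR adjusted p = 0.00659). Trav4-4-dv10 too passed the minimum only through its CD4 UMIs, so its call is given as a description. The adjusted p was 0.148 without the aged+AA library and 0.0705 with DESeq2, and without the young library the segment was not tested.

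Trav6-7-dv9 stood at 1.55, 1.03 and 0.964 CPM in CD8 and 3.27, 2.29 and 3.76 CPM in CD4 cells. The groups do not overlap. The log2 difference was -1.29 (SE 0.39, edgeR adjusted p = 0.0374), which became 0.0766 without the aged library, 0.351 without the aged+AA library, 0.438 with DESeq2 and 0.107 with the cells that showed neither co-receptor added to CD4. Trav4-4-dv10, Trav5-4 and Trav6-7-dv9 are direct neighbours, numbers 110, 111 and 112 of the 128 Trav segments in chromosome order. Trav5-4 lay at -1.66 in the same direction with an edgeR adjusted p of 0.0811.

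The leaders of CD8 cells were not called in the main fit. Trbv12-2 stood at 7.82, 4.28 and 4.64 CPM in CD8 and 6.36, 5.89 and 4.29 CPM in CD4 cells, so the classes overlap (log2 difference 0.18, SE 0.23, edgeR adjusted p = 0.697). Trav16n was higher in CD8 cells of each library at 4.33, 2.39 and 2.17 CPM against 1.64, 0.654 and 1.88 CPM (log2 difference 1.18, SE 0.40, edgeR adjusted p = 0.0623). Its near copy Trav16 gave 3.33, 2.57 and 1.87 CPM against 1.46, 0.981 and 1.61 CPM (log2 difference 1.03, SE 0.41, edgeR adjusted p = 0.112). These copies were tested apart, and the split between them is uncertain. Trav16n was called at a minimum of 10 UMIs or 1 UMI. Trav16 was called with the cells that showed neither co-receptor added to CD4. Under the other settings tried neither copy was called. Trbv3 was higher in CD4 cells of each library, with a log2 difference of -1.13 (SE 0.39) and an edgeR adjusted p of 0.0708. Trav12-2 (1.55, SE 0.68) and Trbv29 (1.11, SE 0.48) were higher in CD8 cells with edgeR adjusted p of 0.154 and 0.155.

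**Figure D4:**
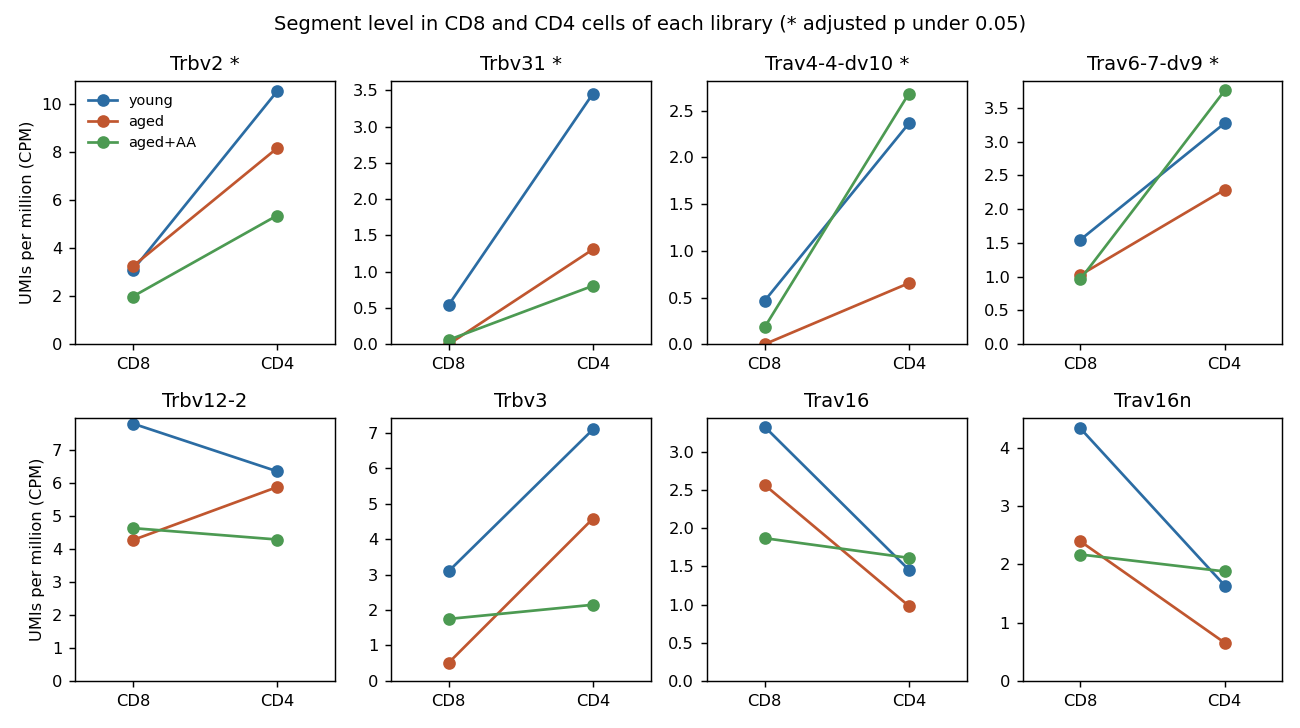
Each line joins the CPM of 1 segment in CD8 and CD4 cells of 1 library, with each panel on its own axis from 0. Stars mark the 4 segments with an adjusted p under 0.05 in edgeR. All lines of those 4 go up towards CD4, the lines of Trav16 and Trav16n go down, and those of Trbv12-2 cross.

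A list of 11 constant and CD3 complex genes, which the receptor needs beside the variable segments, was tested in the same fit. In this list 2 genes were higher in CD8 cells, where 7.53% of all genes were. In CD4 cells 3 were higher, where 8.49% of all genes were. Cd3d, Cd3e and Cd3g of the list had also defined the T cells, and none of them was called. The list was chosen with earlier results of these data known. Tcrg-C2 and Tcrg-C4, constant genes of the gamma chain, were higher in CD8 cells (log2 differences 2.23 and 1.91). Trac, Trbc2 and Cd247, the zeta signalling chain, were higher in CD4 cells (-0.48, -0.24 and -0.62). The Trac difference is smaller than that of each of the 4 segments called. The genes that cut and extend the joints were at or near 0, with 0 UMIs of Rag1 and Rag2 and 19, 5 and 9 UMIs of Dntt in CD8 cells.

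Between libraries, the CPM of single segments in CD8 cells could be compared for the segments with at least 20 UMIs over 2 libraries. For aged over young, 24 of 163 had enough. None was 2-fold higher, where 11.5% of all genes were, and 5 were 2-fold lower, where 2.34% of all genes were: Trbv1, Trbv3, Trbv13-3, Trav14n-3 and Trav13-1. The median of the 24 was -0.82 on the log2 scale, beside 0.29 for all genes tested. For aged+AA over young, 28 had enough, 1 was higher (background 6.42%) and 7 were lower (background 2.01%), with a median of -0.77 beside 0.18. For aged+AA over aged, 18 had enough, 3 were higher (background 1.58%) and 1 was lower (background 4%), with a median of -0.17 beside -0.12. The minimum was summed over the 2 libraries, so a segment could pass it through the library where it was high. These counts are therefore descriptions only. Without that minimum, all Trbv UMIs of CD8 cells came to 41.9, 23.4 and 21.9 CPM (young, aged, aged+AA). All Trav UMIs came to 41.8, 26.9 and 26.9 CPM. The summed segments were thus lower against other genes in both aged libraries, as with the detection rates above. The aged and aged+AA comparisons with the young library share that library.

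The same ratio within the variable segments, as a share of all Trav and Trbv UMIs of the class, left 2 segments lower and 1 higher in aged over young CD8 cells, and 1 lower and 1 higher in aged+AA over young. With the median ratio of all genes set to 1, the segments lower were 14 of 24 in aged over young and 11 of 28 in aged+AA over young. The share of all genes past the same fold was not computed under either setting. These counts are therefore no result about the segments. The constant and CD3 complex list gave 2 of 11 genes 2-fold higher (background 11.5%) and 0 lower (background 2.34%) in aged over young CD8 cells. The median was -0.05 on the log2 scale. Cd3d, Cd3e and Cd3g, whose UMIs defined the T cells, are among these 11 genes. The 2 higher genes were Tcrg-C2 and Tcrg-C4 of the gamma chain. The beta constant genes were lower by less than 2-fold, with no overlap of the intervals. Trbc1 stood at 792 CPM in young and 579 CPM in aged CD8 cells, and Trbc2 at 1612 and 1333 CPM. For the other genes of the list, Trac among them, the young and aged intervals overlapped.

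In CD4 cells fewer segments had enough UMIs, by the same minimum summed over 2 libraries. For aged over young, 3 of 8 were lower (background 2.45%), namely Trbv19, Trbv31 and Trav14n-3, and 0 were higher (background 14.6%). For aged+AA over young, 3 of 11 were lower (background 1.61%), namely Trbv3, Trbv19 and Trbv31, and 0 were higher (background 6.54%). Those 3 had 8, 11 and 3 aged+AA UMIs against 39, 34 and 19 young ones, with intervals under 1. For aged+AA over aged, 1 of 5, Trbv3, was lower (background 4.91%) and 0 were higher (background 1.28%). Trbv3 had 8 aged+AA UMIs against 14 aged ones, and its interval held 1 (0.170 to 1.20). The median was -0.53 for aged over young beside 0.33 for all genes tested, -0.00 for aged+AA over young beside 0.23, and -0.45 for aged+AA over aged beside -0.10. In aged+AA over young the Trbv median was -0.99 and the Trav median 0.20, so the chains went different ways.

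Shares of assigned cells were compared segment by segment where 2 libraries held at least 10 cells between them. This gave 97 ratios in CD8 cells, of which 7 had a 95% interval that left out 1, and 51 in CD4 cells, of which 1 did. By counting error alone 95% intervals leave out the true value in up to 5% of cases, so these 8 of 148 ratios are given as descriptions, and they were named after their values were seen. Trav4-3 had 2 of 374, 0 of 118 and 13 of 333 CD8 cells (young, aged, aged+AA). Trav13-2 had 4, 8 and 8 CD8 cells, and Trbv14 had 14, 7 and 3. Trbv13-2 had 20, 6 and 29, and Trav14n-3 had 19, 3 and 6. In CD4 cells Trav5-4 had 3 of 200, 8 of 84 and 8 of 133 cells.

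The 13 aged+AA CD8 cells of Trav4-3 were looked at as a possible clone. Of these, 4 also had an assigned Trbv segment, and the 4 segments all differed (Trbv2, Trbv3, Trbv19 and Trbv20). More Trbc1 than Trbc2 UMIs were found in 3 of the 13. At least 3 Ccl5 UMIs were found in 8 of the 13 (61.5%, 31.6 to 86.1), beside 52.1% of all CD8 cells of the library. The 29 aged+AA CD8 cells of Trbv13-2 held 2 with a Trav segment, which differed.

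Pairs of a Trav and a Trbv segment bear on clones most directly, but few cells showed both. Both chains were assigned in 75 young, 26 aged and 46 aged+AA CD8 cells, which is 3.63%, 2.74% and 1.86% of CD8 cells. The young library held 72 different pairs, the aged 26 and the aged+AA 42. The largest pair had 2, 1 and 2 cells in the same order. With these numbers, the exact upper bound on the share of the largest pair was 9.30%, 19.6% and 14.8%. Shares of a single pair up to those bounds are not excluded by these counts.

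The pairs with 2 cells were Trav16 with Trbv2, Trav16n with Trbv17 and Trav3-3 with Trbv12-2 in young CD8 cells. In aged+AA CD8 cells they were Trav12-2 with Trbv3, Trav16 with Trbv20, Trav16 with Trbv3 and Trav16n with Trbv29. Among all couples of paired CD8 cells, 1.08, 0 and 3.86 per 1000 shared their pair, where the product of the segment shares gives 2.44, 3.13 and 2.55. In CD4 cells 50, 12 and 21 cells had both chains, and only Trav15-1-dv6-1 with Trbv3, in the young library, was met in 2 cells. The same pair is no proof of 1 clone, since the joints are not read.

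Because a beta chain uses either Trbc1 or Trbc2, a segment held mostly by 1 large clone is read for a lean towards one of them. This readout was not used to assign segments. More Trbc1 than Trbc2 UMIs were found in 25%, 26.1% and 23.7% of CD8 cells with a Trbv segment (young, aged, aged+AA). Trbv12-2 cells gave 25.8% (17 of 66), 23.8% (5 of 21) and 20% (14 of 70), close to all assigned cells in each library. Trbv2 cells gave 2 of 28 (7.14%, 0.877 to 23.5), 6 of 13 (46.2%, 19.2 to 74.9) and 2 of 26 (7.69%, 0.946 to 25.1). Among CD8 segments with at least 10 cells, the interval left out the share of all assigned cells for 1 of 16, 0 of 2 and 0 of 12 segments (young, aged, aged+AA).

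Over all T cells more segments could be read. In the aged+AA library, 4 of 64 Trbv2 cells had more Trbc1 UMIs (6.25%, 1.73 to 15.2) beside 22.5% of all assigned cells, and in the young library 18 of 114 did (15.8%, 9.63 to 23.8) beside 23.4%. Trbv1 in the young library stood at the other end with 21 of 50 (42%, 28.2 to 56.8). The lowest and highest were 4.35% for Trbv14 and 42% for Trbv1 among young cells, 4.76% for Trbv19 and 45.8% for Trbv13-2 among aged cells, and 6.25% for Trbv2 and 57.1% for Trbv13-3 among aged+AA cells. The interval left out the share of all assigned cells for 3 of 20, 2 of 12 and 2 of 14 segments. No segment with at least 10 cells had only Trbc1 or only Trbc2 cells.

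**Figure D5:**
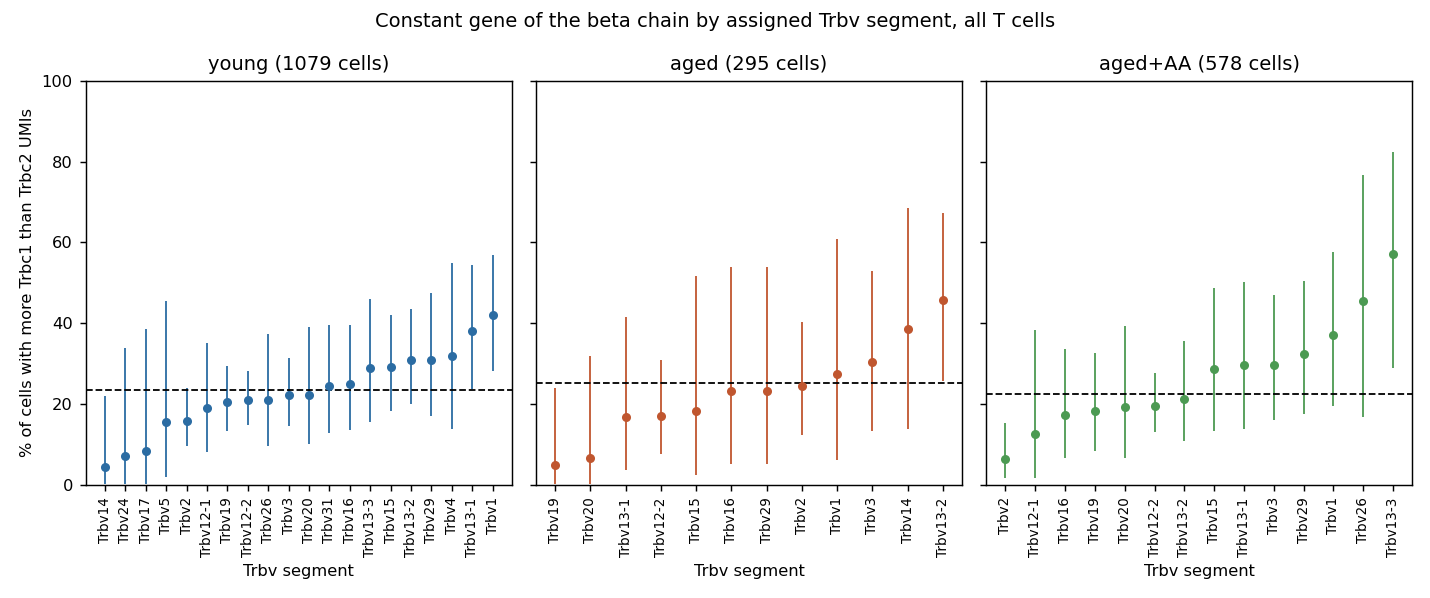
Points give the percent of T cells with more Trbc1 than Trbc2 UMIs among cells assigned to each Trbv segment with at least 10 such cells, ordered by that percent in each library. Bars are 95% exact binomial intervals and the dashed line is the share of all assigned cells (23.4%, 25.1% and 22.5%). Trbv2 in the aged+AA library lies below the line at 6.25%, and Trbv1 in the young library above it at 42%.

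Ccl5, a chemokine of memory and effector CD8 cells, was used to divide CD8 cells into those with 0 and those with at least 3 UMIs. Cells with 1 or 2 UMIs, 8.48%, 11.5% and 14.2% of CD8 cells (young, aged, aged+AA), were left out of this split. Those with at least 3 made up 14.1%, 57.4% and 52.1% of CD8 cells (young, aged, aged+AA). Expanded clones would be looked for there. The effective number of Trbv segments at 0 and at 3 or more Ccl5 UMIs was 14.0 and 15.3 for young cells, 19 and 11.4 for aged cells, and 9.71 and 11.9 for aged+AA cells. For Trbv, the cells with 3 or more were less even than those with 0 in the aged library and not in the others. The 2 aged sets held 39 and 57 cells. For Trav the effective number was 29.1 and 30.6 for young cells, 22.3 and 25.8 for aged cells, and 43.1 and 31.9 for aged+AA cells, so the chains did not go the same way in either aged library. The cells left out, with 1 or 2 UMIs, gave 13.8, 8.55 and 9.34 for Trbv from 50, 19 and 58 assigned cells. These were the lowest Trbv values of each library. For Trav they gave 42.2, 15.2 and 24.0 from 23, 14 and 50 assigned cells.

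Trbv12-2 held 16.7% of young CD8 cells with 0 Ccl5 UMIs (12.7 to 21.4) and 15% of those with 3 or more (7.10 to 26.6). In the aged library it held 7.69% (1.62 to 20.9) and 22.8% (12.7 to 35.8), and in the aged+AA library 25.9% (18 to 35.2) and 16.9% (11.4 to 23.6). The direction differs between the libraries and all 3 pairs of intervals overlap. Detection also differed: at 3 or more Ccl5 UMIs a Trbv UMI was met in 22%, 10.6% and 12.9% of cells, and at 0 in 20.5%, 13.9% and 13.3%.

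The state of the cells of the leading segments was read from fixed lists after cutting each cell to 1000 UMIs. In aged+AA CD8 cells, Trbv12-2 cells had a lower share with a UMI than the other assigned cells for 21 of 25 effector genes, genes of cytotoxic and memory cells. Ccl5 was met in 40% of them (28.5 to 52.4) and in 56.6% of the others (50.3 to 62.8). In the aged library 16 of the 25 were higher and 9 lower in Trbv12-2 cells, with Ccl5 at 68.2% (45.1 to 86.1) against 50.5% (40.0 to 61.1), and in the young library 13 were higher and 11 lower. Of the 12 naive genes, 8, 1 and 4 were higher in Trbv12-2 cells of the aged+AA, aged and young libraries. Trbv12-2 cells did not stand on the effector side in all libraries. No share over all genes is given beside these counts, and the Ccl5 intervals of Trbv12-2 and other cells overlap in each library.

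Segments of T cells with a fixed alpha chain were few. Trav11, used by natural killer T cells, was met in 0 of 5563 young T cells. The exact interval allows up to 0.0663% of cells with a UMI, and 3 counts would be 0.0539%. Trav11 was met in 5 of 2552 aged T cells (0.196%, 0.0636 to 0.457) and in 5 of 4788 aged+AA ones (0.104%, 0.0339 to 0.244). The young interval overlaps both aged ones. Of these 10 cells, 1 had a UMI of Zbtb16, the factor that marks such cells. Trav11 shares nearly all of its sequence with Trav11d, which had 0 UMIs everywhere, and a Trav UMI was met in a minority of T cells, so these counts limit neither the cells that carry the segment nor their order between libraries. Trav1, used by mucosal-associated invariant T cells, was met in 13, 3 and 8 T cells. Among them were 6, 1 and 3 CD8 cells, 0, 0 and 4 CD4 cells, and 6, 2 and 1 cells with neither co-receptor. A Zbtb16 UMI was found in 1, 0 and 0 of the Trav1 cells.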

How the data were processed

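Each library came as a deposited table of UMI counts for every gene in every barcode. The authors made it with Cell Ranger 4, per the file headers. Build mm10 and Seurat 3.1.0 appear in the submitters' processing notes, with no settings. Library totals were 64496639, 94944551 and 80424480 UMIs (young, aged, aged+AA). From these, cells were called in Python 3.11.15: barcodes over 0.1 of the 99th percentile of the top 5000, or from 500 UMIs a multinomial test against free RNA (10000 draws, FDR 0.01). Cells needed 500 UMIs, 250 genes and at most 10% mitochondrial UMIs. Scrublet in scanpy 1.11.5 removed 411, 418 and 457 doublets. CPM ratios between libraries used a pseudocount of 0.5. Sums of CD8 and CD4 cells were fitted in edgeR 4.0.16, and in DESeq2 1.42.0 as an alternative. That comparison, the sequences shown and the segments followed as possible clones were chosen after the values were seen. The ratio, effective-number and edgeR steps were tested on simulated data.

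The members and lists were chosen with earlier results of these data known. Named segments were, per family and class, the 5 with the most cells, those with the highest and lowest usage ratios between libraries, Trav11, Trav11d, Trav1, Trbv13-2, Trbv31, Trbv1 and the largest pairs. Positions and exons came from GENCODE M21 on GRCm38, in which all 163 segments matched by identifier. With 1 library per group, no p-value compares libraries.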

Additional observations from a re-analysis of the deposited data

Results flagged for a closer look

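T cells with UMIs of both Cd4 and a CD8 gene, 88 young, 38 aged and 88 aged+AA cells, were counted among all T cells but entered neither the CD8 nor the CD4 class. Their receptor segments were above the level in B cells. A Trbv UMI was met in 29.5%, 18.4% and 19.3% of these cells (young, aged, aged+AA). A Trav UMI was met in 34.1%, 26.3% and 20.5%. Their median depth was 5779.5, 5895 and 7003 UMIs. After cutting each cell to 1000 UMIs, 3, 2 and 1 of them had a Trbv UMI, and 8, 4 and 3 a Trav UMI. Before that cut, CD8 cells gave 21.4%, 12.4% and 13.5% for Trbv, and 19.4%, 13.2% and 13.9% for Trav.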

How the results depend on the processing

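Cutting each CD8 cell to 1000 UMIs lowered the share with a Trbv UMI to 4.46%, 2.43% and 2.32% (young, aged, aged+AA) and with a Trav UMI to 3.93%, 3.48% and 2.97%. A mitochondrial limit of 5% gave 15% for Trbv in aged+AA CD8 cells. Requiring at least 2 UMIs for an assignment moved the share of the leading Trbv segment in CD8 cells to 25.5%, 36.4% and 15.8%, and of the leading Trav segment in young ones to 14.3%. The effective number of Trbv segments became 8.95 in young and 17.1 in aged+AA CD8 cells and 5 in aged CD4 cells, and that of Trav 22.8 in aged CD4 cells. The order of the libraries in Trbv evenness of CD8 cells was not kept at this setting, which rests on few cells. With d and n copies counted together, the leading Trav share was 18.7%, 18.6% and 15.9% in CD8 cells, with effective numbers of 15.7, 15.4 and 20.4, and of 20.6 and 18.5 in young and aged+AA CD4 cells.

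Counts of segments past 2-fold between libraries moved most, in 30 of 114 cases (30 moved, 84 did not). No share over all genes was computed at the changed settings, so the counts below are descriptions only. In CD8 cells, aged over young, segments lower were 12 at a minimum of 10 UMIs, 15 at 1.5-fold, 14 with the median of all genes set to 1, and 2 with the 5% mitochondrial limit or as a share of Trav and Trbv UMIs. Segments higher were 2 at 10 UMIs and 1 as such a share. Against the young library, aged+AA CD8 cells had 18 segments lower at 10 UMIs, 20 at 1.5-fold, 11 with the median set to 1 or a stricter T-cell gate, and 1 as a share, and 5 were higher at 10 UMIs. Against the aged library they had 6 segments lower at 10 UMIs or 1.5-fold and 0 with the stricter gate or with both CD8 genes required, and 1 was higher with the stricter gate. In CD4 cells at 10 UMIs, segments higher and lower were 3 and 12 (aged over young), 3 and 2 (aged+AA over aged) and 3 and 9 (aged+AA over young). As a share, 0 were lower for aged over young. Between aged+AA and aged, 1.5-fold gave 1 higher and 2 lower, and 0 were lower with the UMI threshold alone, without gamma-delta and NK markers, or with the median set to 1.

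Between CD8 and CD4 cells, leaving out 1 library left 1 to 3 segments higher in CD4 cells (1 without aged+AA), and DESeq2 left 1. In CD8 cells 1 segment, Trav16n, was higher at a minimum of 10 UMIs or 1 UMI, and 2, Trbv29 and Trav16, with the cells that showed neither co-receptor added to CD4. Except where a changed minimum or fold alters which segments count, the cause was not tested. No paired analysis was possible between the libraries because each group held 1 library. A detection of 12.4% to 21.4% of CD8 cells per chain limits what can be said of clones.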

Other observations

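In the free RNA of each library, taken from barcodes too small to be cells, Trbv segments made up 28.4 CPM in the young, 4.90 CPM in the aged and 8.55 CPM in the aged+AA library (20, 13 and 17 UMIs). Trav segments made up 12.8, 3.77 and 9.05 CPM.

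Cells with UMIs of more than 1 Trbv segment were 7.69%, 4.24% and 2.99% of CD8 cells with a Trbv UMI (young, aged, aged+AA). For Trav, of which a T cell can carry more than 1 joined copy, they were 7.98%, 7.2% and 5.52%.

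Joining segments were hardly met: in all T cells of the 3 libraries, Traj segments had 7, 0 and 2 UMIs and Trbj segments 1, 1 and 0.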
